A study of Mus musculus with 140 samples.

Results

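The positions of TDP-43 and of N6-methyladenosine (m6A) were compared in normal mouse cortex, in 16 of the 140 samples of the series (70 of which are immunoprecipitation, or IP, libraries). They were the 8 TDP-43 and the 8 m6A IP libraries of cortex labelled NT, and the labels give the group of each. NT mice are the non-transgenic littermates of the R6/2 line, a model of Huntington's disease. They were 3 months of age, untreated, and 4 males and 4 females entered each assay. TDP-43 eCLIP pulled down TDP-43 with an antibody from pulverised tissue crosslinked with UV, whereas m6A eCLIP pulled down m6A with an antibody from mRNA purified on poly-dT beads, so the assays also differ in the RNA they start from. Nothing in the labels ties the TDP-43 library of a number to the same animal as the m6A library of that number, and p-values measure the spread between these libraries.

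TDP-43 is a largely nuclear RNA-binding protein that prefers UG-rich RNA, binds long introns and 3' UTRs, and controls splicing, stability and transport of neuronal transcripts. m6A is the most common internal modification of mRNA. It is laid down during transcription at the DRACH consensus (A, G or U, then A or G, then A, C, and A, C or U, the central A being methylated), typically in long exons and around stop codons, and is read by YTH-domain proteins.

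Each library is a list of clusters, stretches where reads piled up, scored against the matched input library. A cluster is called enriched here if its p against input was 0.001 or less. TDP-43 libraries listed between 179965 and 217247 clusters, of which 28911 to 54931 (13.3 to 26.4%) were enriched, with a median length of 55 to 59 bases. m6A libraries listed between 137223 and 180136 clusters, of which 56398 to 71106 (33.6 to 44.2%) were enriched, with a median length of 73 to 79 bases. The lists hold no reads, so depth is unknown. All 12 markers of cortical excitatory neurons had listed clusters in every library of both assays, and so did all 11 markers of striatal projection neurons. The presence of clusters alone thus did not set cortex apart from striatum.

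A site is a stretch covered on the same strand by enriched clusters of at least 4 of the 8 libraries of an assay. There were 29456 TDP-43 sites in 5145 genes and 32669 m6A sites in 10992 genes. Where they coincided they left 5867 shared stretches in 2482 genes, of which 47.6% lay in 3' UTRs and 41.8% in coding sequence. Of these, 1313 were covered in all 8 libraries of both assays. The 6 longest of the latter, 1 per gene, show what RNA carries both signals, and a window of 30 bases from each is given 5' to 3' as RNA, read from the GRCm38 genome (mm10) on the strand of the gene, with DRACH matches in capitals.
Magi3, coding sequence, chr3:104015280-104015309, minus strand: ucccauccaaaaAGACUagcagcacugcug
Hspa5, coding sequence, chr2:34776033-34776062, plus strand: ccaauuaucagcAAACUcuauggaagugga
Jph3, coding sequence, chr8:121784924-121784953, plus strand: ccagcccacugaGGACUuccgcacccgggg
Ttl, 3' UTR, chr2:129093214-129093243, plus strand: acagugcuguggAGACCuugggaagcuggc
Phf3, coding sequence, chr1:30803926-30803955, minus strand: ugguaagagugcAGACAagAAACCGGACAg
Nrxn2, 3' UTR, chr19:6532219-6532248, plus strand: agggggaucuggGGACCcucuccccggcug

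The windows were chosen around a DRACH match, so the match itself is no result. Over their whole length of between 313 (Nrxn2) and 407 bases (Magi3), the 6 stretches held between 4 (Nrxn2) and 14 (Phf3) DRACH matches and 0 matches to UGUGU, the short core of the TDP-43 motif. Magi3 and Nrxn2 encode a scaffold and an adhesion protein of cell junctions and synapses, Jph3 a junctophilin that ties the endoplasmic reticulum to the plasma membrane, Hspa5 the chaperone BiP, Ttl the tubulin tyrosine ligase and Phf3 a regulator of RNA polymerase II elongation. At the Ttl stretch the strongest TDP-43 cluster had a log2 fold over input of 4.74, 6.17 and 6.74 (lowest, median and highest library), and at Magi3 of 2.29, 2.64 and 3.35. The m6A clusters at Ttl reached 2.85, 3.18 and 3.50, and those at Magi3 reached 1.27, 1.76 and 2.57. Both assays were therefore more enriched over input at the Ttl stretch than at the Magi3 stretch, in every library.

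The first question was where in transcripts each signal lies. TDP-43 clusters lay more often in coding sequence and m6A clusters more often in 3' UTRs, and the sharpest contrast was at the stop codon. Within 200 bases of a stop codon lay 8.54, 9.05 and 9.14% of TDP-43 clusters (lowest, median and highest library) and 23.3, 24.4 and 25.9% of m6A clusters. The assays did not overlap, and the means were 8.97 ± 0.202% and 24.5 ± 0.949% (SD, n = 8 each; exact permutation within sex, two-sided, p = 0.000408, the smallest that 4900 labelings can give, adjusted p = 0.00146 over 50 library tests). The other differences called here over libraries between the assays carry the same p and adjusted p.

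Coding sequence held 48.0, 52.1 and 57.0% of TDP-43 clusters and 38.2, 40.4 and 43.6% of m6A clusters, with no overlap (means 52.6 ± 2.87 and 40.9 ± 2.05%). 3' UTRs held 30.5, 35.9 and 40.6% of TDP-43 clusters and 42.5, 46.8 and 51.02% of m6A clusters, again with no overlap (means 36.0 ± 3.40 and 46.4 ± 3.26%). These shares depended on the threshold. The thresholds of the study (p under 0.001 and log2 fold over input above 3) were also applied, here to the clusters of each library. The study used them on peaks reproducible between male and female samples, a step not repeated here. With these thresholds coding shares were 39.9% for TDP-43 and 38.6% for m6A (exact permutation p = 0.333). The 3' UTR shares turned around to 47.5 and 45.3% (exact permutation p = 0.0931).

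Introns were minor in both assays. They held 2.42, 2.83 and 3.07% of TDP-43 clusters and 3.14, 3.37 and 4.30% of m6A clusters (means 2.79 ± 0.233 and 3.54 ± 0.396%). Among all listed clusters the order turned around, with 26.1% of TDP-43 and 12.3% of m6A clusters intronic (exact permutation p = 0.000408), and at a p of 1e-10 or less it was 2.46 against 2.00% (exact permutation p = 0.0049). The m6A libraries started from polyadenylated mRNA, and the part of that step in these values was not tested. Exons of noncoding transcripts, also those of protein-coding genes, held 1.63 ± 0.0948% of TDP-43 and 3.07 ± 0.186% of m6A clusters. For 5' UTRs the difference between 6.91 ± 0.733 and 6.00 ± 1.51% missed the threshold (exact permutation, adjusted p = 0.0571).

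**Figure D1:**
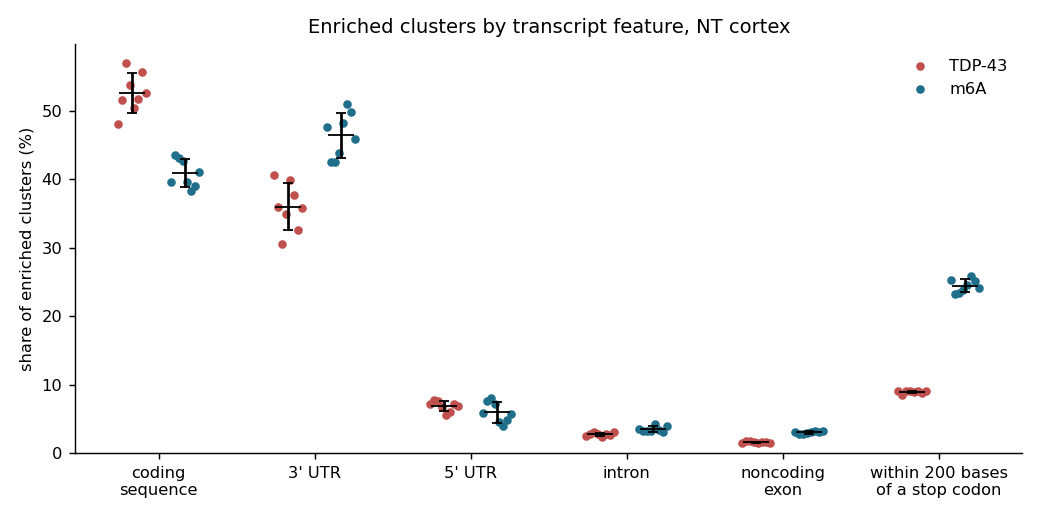
Share of enriched clusters (%) by transcript feature in NT cortex, 1 point per library (8 TDP-43, 8 m6A), with the mean and SD as bars; the class within 200 bases of a stop codon also counts clusters of the coding sequence and 3' UTR classes. The assays separate fully in coding sequence, 3' UTR and near stop codons (8.97 against 24.5% on average) but overlap in the 5' UTR.

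Along the transcript the share of TDP-43 clusters was lower at the end of the 3' UTR than at the start codon. The first of 20 bins of the coding sequence held 3.65% of TDP-43 clusters and the last held 2.59%, whereas for m6A these bins held 1.89 and 6.02%. In the first of 20 bins of the 3' UTR the shares were 2.38 and 8.08%. In the last 3' UTR bin they were 0.518 and 0.590%. m6A thus rose toward the stop codon and fell after it, while TDP-43 had no such peak. Of coding clusters, 31.3 ± 0.713% of TDP-43 and 48.2 ± 2.34% of m6A lay in the final of 3 equal parts of the coding sequence.

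Within 3' UTRs of at least 300 bases, the first 200 bases after the stop codon held 11.5, 12.0 and 13.9% of TDP-43 clusters and 32.5, 33.4 and 34.6% of m6A clusters. At the other end, the final of 3 equal parts of the 3' UTR held 24.7 ± 0.246% of TDP-43 and 15.3 ± 1.41% of m6A clusters. The exon context differed as well, since internal exons of at least 400 bases held 13.9, 15.1 and 16.2% of the coding TDP-43 clusters and 32.3, 34.2 and 35.4% of the coding m6A clusters. TDP-43 was closer to start codons, with 5.85 ± 0.650% of its clusters within 100 bases of one against 4.28 ± 0.914% for m6A. All of these differences were called, at the p given for stop codons.

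**Figure D2:**
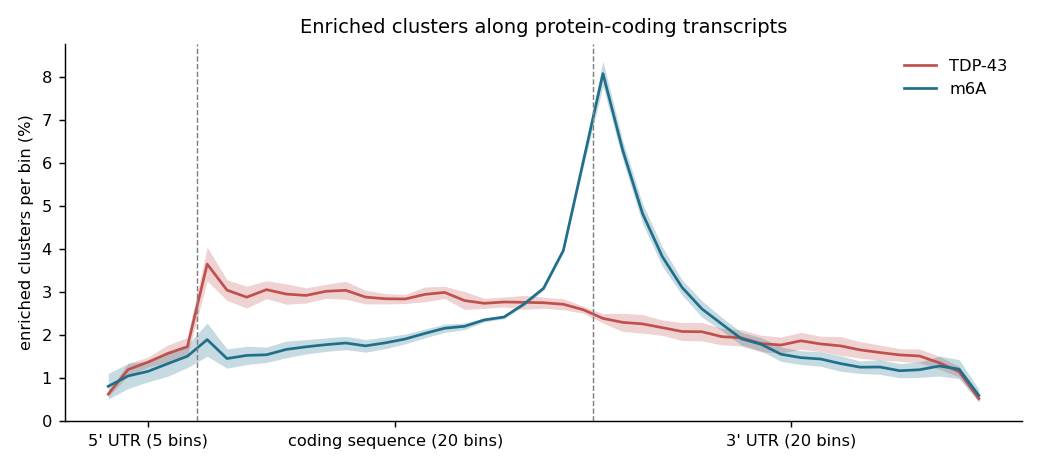
Share of enriched clusters (%) per bin along protein-coding transcripts, with 5 bins for the 5' UTR and 20 each for coding sequence and 3' UTR; lines are means of 8 libraries, bands are SD and vertical lines mark start and stop codons. m6A peaks at 8.08% in the first bin after the stop codon, where TDP-43 is at 2.38%.

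The sequences under the clusters were compared over 51 bases around each midpoint, on the strand of the gene. Motifs were matched as RNA on the transcribed strand only: UGUGU and the longer repeat GUGUGUGU, which contains it, for TDP-43, and DRACH and its most methylated form GGACU, which DRACH contains, for m6A. GGACU was present in 5.60, 5.64 and 5.76% of TDP-43 windows and in 13.1, 13.4 and 14.2% of m6A windows. DRACH was present in 56.5 ± 0.843% of TDP-43 and 78.0 ± 0.761% of m6A windows. UGUGU was present in 6.63, 7.38 and 8.18% of TDP-43 windows and in 6.201, 6.36 and 6.52% of m6A windows, and GUGUGUGU in 0.760 ± 0.117 and 0.210 ± 0.0192%. The assays did not overlap for any of these motifs, but the gap for UGUGU was small.

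Against windows of the same length moved to 9 other places in the same gene and feature, m6A windows were richer in GGACU in every library (13.5 against 5.22%) and in DRACH (78.0 against 61.8%), and poorer in UGUGU (6.35 against 7.46%; exact sign-flip permutation, p = 0.00781, the smallest that sign flips of 8 libraries can give, adjusted p = 0.00888 for each). TDP-43 windows were richer in UGUGU (7.42 against 6.83%), GUGUGUGU (0.759 against 0.434%) and also GGACU (5.66 against 4.86%), and poorer in DRACH (56.5 against 60.8%), with the same adjusted p. The UGUGU difference differed by feature. It was 12.6 against 10.4% in 3' UTRs, where TDP-43 windows were richer, and 4.08 against 4.54% in coding sequence, where they were poorer. Most TDP-43 clusters thus held no UGUGU in this window.

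The next question was whether the positions coincide more often than place in the gene and feature would give. They did against such a background, by a small margin, mainly in 3' UTRs, and the answer for m6A clusters depended on what they were compared with. Of TDP-43 clusters, 17.7, 18.3 and 19.0% touched an m6A site on the same strand by at least 1 base. The same clusters moved within their own gene and feature touched one in 14.3, 14.6 and 15.04%. The ratio was 1.25 ± 0.0126 (SD, n = 8) and above 1 in all 8 libraries (exact sign-flip permutation, adjusted p = 0.00888). As a yardstick, 75.7 ± 9.07% of the clusters of a TDP-43 library touched sites built from the other TDP-43 libraries, 2.76 times the shifted share.

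In the other direction, 12.5, 13.04 and 13.8% of m6A clusters touched a TDP-43 site, against 9.64, 9.82 and 10.1% once shifted, a ratio of 1.33 ± 0.0307 and above 1 in all 8 libraries (exact sign-flip permutation, adjusted p = 0.00888). Among m6A libraries, 90.8 ± 1.89% of clusters touched sites built from the other m6A libraries. Most clusters of each assay therefore lay on no site of the other.

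The excess was larger in 3' UTRs. There 22.3, 24.0 and 24.3% of TDP-43 clusters touched an m6A site, against 16.8, 17.2 and 17.5% once shifted (ratio 1.38 ± 0.0271). In coding sequence the shares were 14.02, 14.8 and 15.6% against 13.3, 13.6 and 13.996% (ratio 1.08 ± 0.0239). The log2 ratio was higher in 3' UTRs than in coding sequence in every library, 0.47 against 0.11 on average for TDP-43 clusters and 0.50 against 0.24 for m6A clusters (exact sign-flip permutation, adjusted p = 0.00888 for both). 5' UTRs and exons of noncoding transcripts gave ratios of 1.27 ± 0.0182 and 1.54 ± 0.103 for TDP-43 clusters. In introns 13.7 ± 1.40% of TDP-43 clusters touched an m6A site, against 0.300 ± 0.0655% once shifted anywhere in the gene's introns. Moved by only 200 or 400 bases they touched one in 5.37%, a ratio of 2.55. These short shifts lowered the other ratios too, though each stayed above 1 in all 8 libraries. For TDP-43 clusters they gave 1.18 over all features, 1.26 in 3' UTRs and 1.06 in coding sequence. For m6A clusters they gave 1.22, 1.28 and 1.11 in the same order.

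**Figure D3:**
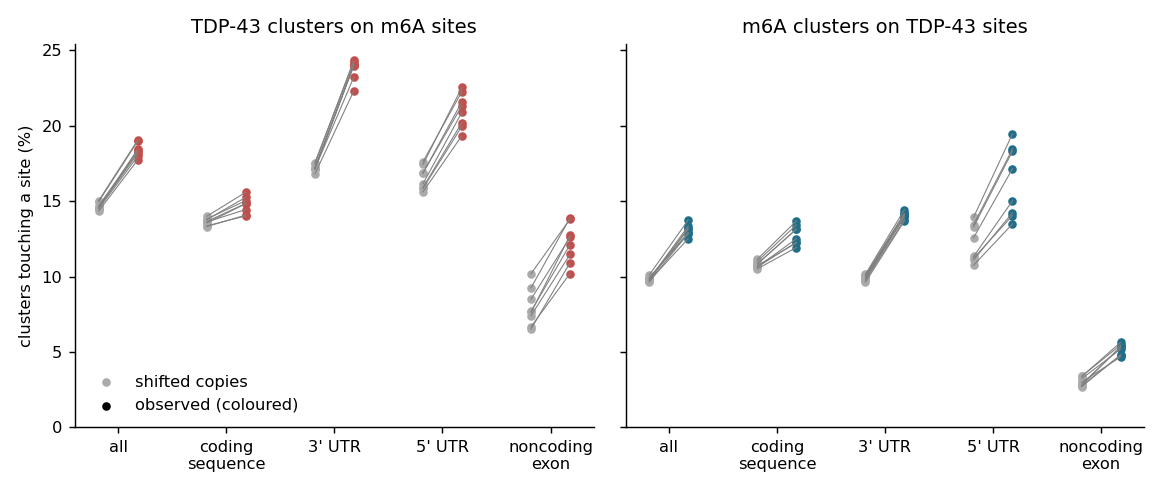
Share of enriched clusters touching a site of the other assay (%), left for TDP-43 clusters on m6A sites and right for m6A clusters on TDP-43 sites, by feature; each line joins the observed value of 1 library (coloured) to its shifted copies (grey), 8 libraries per panel. Observed values lie above shifted ones in every library, by more in 3' UTRs (23.8 against 17.2%, left) than in coding sequence (14.8 against 13.6%).

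What the shifted copies land on bears on these ratios, since 42.2 ± 1.41% of shifted TDP-43 clusters and 35.1 ± 0.670% of shifted m6A clusters touched any listed cluster of their own library. Another background is the clusters listed in the same library, gene and feature but not enriched. It used 51 bases around each midpoint and only gene features that held such clusters. Against it the TDP-43 ratio was 1.52 (16.7 against 11.1%), whereas shifted copies over 51 bases gave 1.26 (17.7 against 14.1%). It was 1.61 in coding sequence and 1.42 in 3' UTRs, so that the order of the features turned around. For m6A clusters the ratio fell below 1 in all 8 libraries, to 0.877 (13.7 against 15.7%; exact sign-flip permutation, p = 0.00781), with 0.935 in 3' UTRs and 0.807 in coding sequence. In introns it stayed above 1 in all 8 libraries, at 1.79 (5.32 against 3.13%). Over all features, in 3' UTRs and in coding sequence, m6A clusters thus touched TDP-43 sites more often than shifted copies did but less often than the listed clusters that were not enriched. With the thresholds of the study for both assays, 2.25% of TDP-43 clusters touched an m6A site against 1.60% once shifted, and in coding sequence the ratio of 1.02 was above 1 in 4 of 8 libraries (exact sign-flip permutation, p = 0.477).

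Around the midpoint of a TDP-43 cluster in a 3' UTR, m6A sites covered 20.1 ± 0.534% of positions, against 13.8 ± 0.171% around shifted copies. At 100 bases upstream the values were 18.1 and 14.3%, and at 100 bases downstream they were 16.3 and 12.9%. At 500 bases downstream they met, at 9.02 and 9.08%, and at 500 bases upstream they stood at 16.2 and 14.1%. In coding sequence the midpoint values were 11.4 ± 0.511 and 10.2 ± 0.225%. The excess in 3' UTRs was therefore highest at the cluster itself and reached further upstream than downstream.

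**Figure D4:**
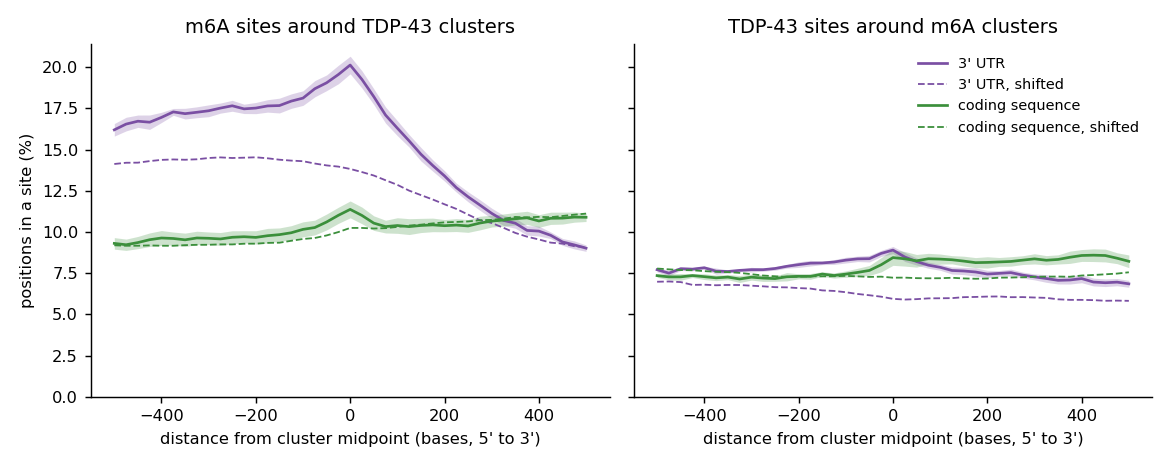
Share of positions covered by sites of the other assay (%) by distance in bases from the cluster midpoint, 5' to 3' along the strand; solid lines are means of 8 libraries with SD bands, dashed lines are clusters shifted within the same gene and feature. In 3' UTRs m6A coverage reaches 20.1% at TDP-43 midpoints against 13.8% for shifted clusters, whereas in coding sequence it reaches 11.4 against 10.2%.

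The overlap was then split by the motif in the cluster. TDP-43 clusters with UGUGU had the lower ratio over their own shifted copies, 1.21 ± 0.0225 against 1.26 ± 0.0127 without it, and in 3' UTRs 1.20 ± 0.0384 against 1.41 ± 0.0279. m6A clusters with GGACU had the higher ratio, 1.39 ± 0.0214 against 1.32 ± 0.0327 without it. Each of these differences had the same sign in all 8 libraries (exact sign-flip permutation on the log2 ratios, adjusted p = 0.00888). By strength, over 51 bases, the ratio for TDP-43 clusters was 1.22 ± 0.0282 at a −log10 p from 3 to 5, 1.28 ± 0.0234 from 5 to 10, 1.27 ± 0.0384 from 10 to 20 and 1.27 ± 0.0278 from 20 to 400. For m6A clusters it was 1.41 ± 0.0619, 1.34 ± 0.0392, 1.32 ± 0.0564 and 1.36 ± 0.0418 in the same order. Neither series rose steadily with strength, and these differences were not tested. Of TDP-43 sites, 10.4% of the 5673 that touched an m6A site and 4.61% of the 23783 that did not held GGACU, given as a description with no test.

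Overlap in NT cortex was set beside NT striatum and R6/2 cortex (which carries a fragment of mutant human huntingtin), each with 8 libraries per assay and sites of its own. Both comparisons share the NT cortex libraries. The log2 ratio for TDP-43 clusters was 0.32 ± 0.0145 in NT cortex and 0.38 ± 0.0751 in NT striatum (exact permutation within sex, adjusted p = 0.00255), and in coding sequence 0.11 ± 0.0319 and 0.19 ± 0.0519 (exact permutation, adjusted p = 0.00255). In 3' UTRs it was 0.47 ± 0.0286 and 0.44 ± 0.0328 (exact permutation, adjusted p = 0.0972). The library of NT striatum male 1 stood apart at 0.56, and without it the difference of -0.0512 was -0.0247 (exact permutation p = 0.00204). On all listed clusters the difference was 0.00599 (exact permutation p = 0.581). R6/2 cortex was at 0.33 ± 0.0328, and the difference from NT cortex missed the threshold (exact permutation, adjusted p = 0.598).

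At the level of genes, 4283 genes held both a TDP-43 and an m6A site, which was 83.2% of the genes with a TDP-43 site and 38.96% of those with an m6A site. Among the 12600 genes with listed clusters in all 16 libraries, 4280 held both, 758 a TDP-43 site only, 5278 an m6A site only and 2284 neither. Genes were compared by their number of enriched clusters divided by the size factor of the library, here called normalized clusters, and the difference is log2 of TDP-43 over m6A with 0.5 added to each value. With limma 7015 of 7836 genes (89.5%) were called at an adjusted p under 0.05, 1533 (19.6%) with TDP-43 higher and 5482 (70.0%) with m6A higher. The libraries of the assays did not overlap for 5722 genes (73.0%), and the median log2 difference was -2.11 (-0.78 with 4 added in place of 0.5, which changes the size of differences but gave 7070 calls).

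That split depended on the filter and the scaling. A gene could enter through m6A libraries alone, and 2148 genes tested were at 0 in every TDP-43 library against 144 at 0 in every m6A library. Among 3251 genes in which at least 4 libraries of each assay had 2 enriched clusters or more, 983 (30.2%) had TDP-43 higher and 1455 (44.8%) m6A higher (75.0% called in all), with a median of -0.30. Of the calls, 21.9% were TDP-43 higher with median-ratio scaling, 29.4% with totals and 42.8% with quantile normalization. Abutting clusters were counted apart, and 45.2 to 51.9% of enriched m6A clusters abutted another, against 19.5 to 23.5% for TDP-43. With these joined, a setting chosen after seeing the data, 5812 of 6505 genes were called. Of them 1394 had TDP-43 and 4418 m6A higher, and the median over genes tested was -1.74. All listed clusters were tested with a filter of 10 clusters in place of 2, which 6381 genes passed. There 69.3% of the calls were TDP-43 higher, and of 3128 genes called in both settings 1502 kept their direction. The lists below therefore hold partly other genes in that setting. The differences below are therefore differences in enrichment over input, and the listed clusters are given beside several of them. In bulk tissue fewer cells of a type and less RNA per cell cannot be told apart.

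The genes with the largest difference toward TDP-43 carried TDP-43 clusters along their coding sequence or 3' UTR and nearly no enriched m6A cluster. Itpr1 (chr6:108213096-108551109, plus strand), the inositol trisphosphate receptor that releases calcium from internal stores, had 65.1, 91.1 and 125 normalized TDP-43 clusters (lowest, median and highest library), mostly in coding sequence, and 0.813, 1.75 and 3.16 m6A clusters (log2 difference 5.47, SE 0.20, limma adjusted p = 3.51e-14). Listed m6A clusters were present there, 53 to 77 per library against 87 to 117 for TDP-43. Ubr4, a very large ubiquitin ligase, had 35.6, 41.7 and 46.7 TDP-43 and at most 1.79 m6A clusters (log2 difference 5.73, SE 0.27, limma adjusted p = 1.21e-12). None of these groups overlapped. Ubr4 passed the filter through TDP-43 libraries alone and so had to differ, so its p-value is no support.

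Zc3h7b, a zinc finger protein that binds RNA, had 30.2, 36.5 and 46.7 normalized TDP-43 clusters and 0 enriched m6A clusters in all 8 libraries, although 22 to 31 m6A clusters per library were listed (limma adjusted p = 1.75e-16). Tomm20, a receptor of the mitochondrial import pore, had 16.1, 19.3 and 29.2, nearly all in its 3' UTR, and again 0 enriched of 13 to 22 listed m6A clusters. The other genes among the 10 largest toward TDP-43 were Mib1 (a ubiquitin ligase of Notch signalling), Trim37, Hnrnpul2, Ahcyl2, Reps2 and Rasgef1a, with median values from 19.3 (Rasgef1a) to 41.2 (Mib1). m6A was at 0 in all 8 libraries for each of these but Hnrnpul2 (at most 0.914). All genes of this paragraph passed the filter through TDP-43 libraries alone and so had to differ. The p-value of Zc3h7b is therefore no support.

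In the opposite direction stood genes with m6A clusters in coding sequence, 3' UTR or both and nearly no enriched TDP-43 cluster. Cspg4 (chr9:56865033-56899870, plus strand), the NG2 proteoglycan of oligodendrocyte precursors, had 14.9, 19.97 and 24.2 normalized m6A clusters and 0 enriched TDP-43 clusters in every library, of 4 to 15 listed (limma adjusted p = 2.20e-16). Ptprz1, a receptor phosphatase of glia, had 22.1, 27.8 and 31.9 m6A clusters and at most 1.11 for TDP-43 (log2 difference -5.57, SE 0.22, limma adjusted p = 7.05e-14), but 29 to 41 TDP-43 clusters were listed in it against 22 to 38 for m6A. Here too the assays did not overlap in enriched clusters. The remaining genes among the 10 largest toward m6A were Prag1, Tril, Igsf3, the cadherin Dchs1, Prrt3, the orphan receptor Gpr22, Noct and Nwd2, with m6A medians from 16.4 (Noct) to 25.2 (Nwd2) and TDP-43 medians of 0. Cspg4 and Ptprz1 had TDP-43 medians of 0 as well. They passed the filter through m6A libraries alone and so had to differ, so their p-values are no support.

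Genes named for their many shared stretches had 14 to 20 of them. Peg13 (chr15:72805600-72810324, minus strand), an imprinted noncoding RNA of brain, had 20 of them, with 19.5, 23.9 and 38.9 normalized TDP-43 and 61.4, 69.2 and 82.6 m6A clusters (log2 difference -1.39, SE 0.13, limma adjusted p = 1.44e-08). Apc, a scaffold of Wnt signalling and microtubules, had 19. The presynaptic scaffolds Pclo and Bsn had 18 and 16, and Map1a, a microtubule protein of dendrites, had 16. Bsn had 44.3, 67.1 and 103 TDP-43 and 43.6, 65.5 and 79.7 m6A clusters, which overlapped (log2 difference 0.15, SE 0.15, limma adjusted p = 0.352). D430041D05Rik had 15, Ppp1r9a (neurabin, an actin-binding protein of spines) 15 and Ank2 (ankyrin-B) 14. Ppp1r9a had 46.3, 59.3 and 82.0 TDP-43 against 14.7, 20.5 and 22.9 m6A clusters and Ank2 68.5, 86.1 and 97.8 against 35.8, 42.98 and 46.6, neither overlapping, though the Ank2 call was lost under quantile normalization (log2 difference 0.09).

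**Figure D5:**
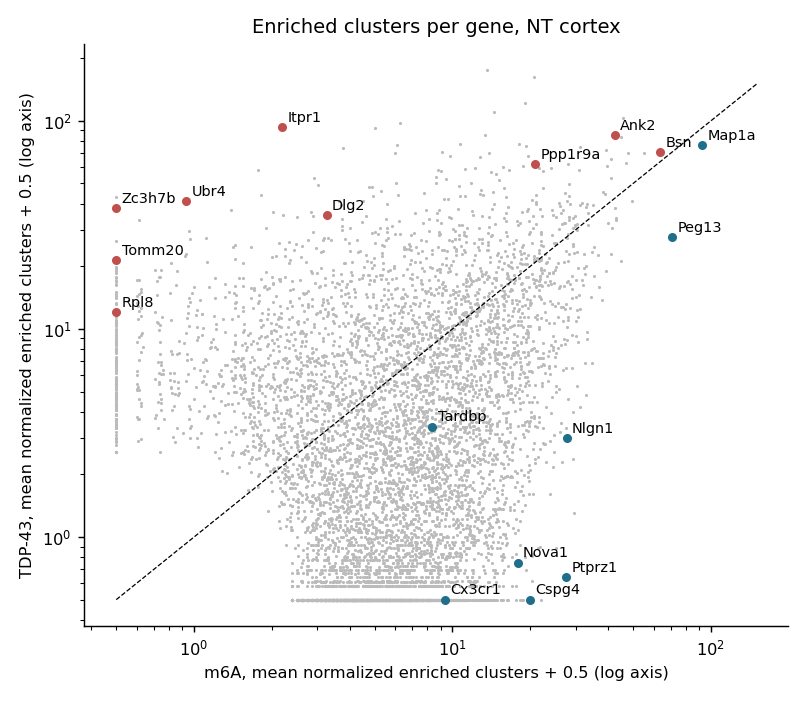
Mean normalized enriched clusters per gene with 0.5 added, m6A on the horizontal and TDP-43 on the vertical log axis, 7836 genes tested; the dashed line marks equality, and labelled genes are red where the TDP-43 mean is higher and blue where the m6A mean is higher. Itpr1 lies far above the line, Bsn and Map1a near it, and Cspg4 and Cx3cr1 at the floor of TDP-43.

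Tardbp (chr4:148612382-148627019, minus strand), which encodes TDP-43 and is known to be bound by its own protein in the 3' UTR, carried all of its TDP-43 clusters there. It had 1.76, 3.06 and 3.58 normalized TDP-43 and 5.87, 8.18 and 8.97 m6A clusters, which did not overlap (log2 difference -1.31, SE 0.15, limma adjusted p = 2.39e-07). It held 2 TDP-43 sites, 5 m6A sites and 2 shared stretches, so the gene carried both signals at the same bases. On all listed clusters its difference was 0.28.

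Gene lists were described by counts, beside the shares over all genes given above (19.6% with TDP-43 and 70.0% with m6A higher). Since a gene could pass the filter through 1 assay alone and then had to differ, each list is also given for genes in which at least 4 libraries of each assay had 2 enriched clusters or more, called measured in both assays (30.2% and 44.8% over all such genes, median -0.30). Of 18 textbook TDP-43 targets 15 were tested, 7 had TDP-43 higher and 5 m6A higher (median log2 difference 0.04, against -2.11 over all genes), and of 12 measured in both assays 5 and 4 (median 0.02). Sort1, a sorting receptor of progranulin, had 16.8, 25.3 and 33.4 TDP-43 clusters, mostly in its 3' UTR, and 0.914, 1.96 and 4.88 m6A clusters. Nefl, the light neurofilament, had 10.7, 14.2 and 18.1 against at most 0.991. Of 21 m6A writers, erasers and readers 14 were tested, 3 had TDP-43 higher and 10 m6A higher (median -2.23), and of 8 measured in both assays 2 and 5 (median -1.11). The reader Ythdf2 had 9.87, 12.1 and 14.9 m6A clusters and 0 enriched TDP-43 clusters, while Fmr1, whose protein binds m6A RNA, had 5.16, 5.56 and 9.35 TDP-43 and 0 enriched m6A clusters.

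Genes for ribosomes and mitochondria follow. Of 76 cytosolic ribosomal protein genes 11 passed the filter, 10 with TDP-43 higher and 0 with m6A higher (median 2.98), but only 1 was measured in both assays, and it was not called. Rpl8 had 8.61, 11.4 and 16.02 TDP-43 clusters and 0 enriched of 7 to 12 listed m6A clusters, and Rps3 had 5.37, 7.47 and 9.73 against 0 enriched of 15 to 20 listed. Of 83 nuclear genes of the respiratory chain 30 were tested, 14 with TDP-43 and 8 with m6A higher (median 0.35), among them Sdha and Cox4i1 on the TDP-43 side, and of 18 measured in both assays 7 and 3 (median 0.25). On all listed clusters 0 of 5 ribosomal and 0 of 16 respiratory genes tested had TDP-43 higher, against 3082 of 6381 over all genes. There 2 ribosomal and 11 respiratory genes had m6A higher (medians -0.19 and -0.71), so the respiratory genes tested there leaned toward m6A.

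The lists of zinc finger genes, protocadherins and immediate early genes had m6A higher in most members tested, and many of these were not measured in both assays. Of 365 Zfp zinc finger genes 238 were tested, 224 with m6A higher and 7 with TDP-43 higher (median -3.29), for example Zfp646 with 15.9, 18.8 and 22.4 m6A clusters. Only 37 of them were measured in both assays, 26 with m6A and 3 with TDP-43 higher (median -1.63). Of 57 clustered protocadherins, whose near-identical exons can share reads, 46 were tested and 45 had m6A higher (median -3.51), and of 6 measured in both assays 5 had m6A and 1 TDP-43 higher (median -1.53). Of 15 immediate early genes, which neuronal activity induces within minutes, 14 had m6A higher and 0 TDP-43 higher (median -2.43), among them Egr4 with 10.6, 12.0 and 15.9 m6A and at most 2.67 TDP-43 clusters, and Ier2. Of 8 of them measured in both assays 7 had m6A and 0 TDP-43 higher (median -1.31). Under quantile normalization 192 of the 238 Zfp genes and 11 of the 15 immediate early genes still had m6A higher. Over all genes tested it was 3462 of 7836. On all listed clusters 32 Zfp genes had m6A and 31 TDP-43 higher of 110 tested (median -0.08). Over all 6381 genes tested there, 1368 had m6A and 3082 TDP-43 higher (median 0.25). Immediate early genes had 4 m6A and 2 TDP-43 higher of 8 tested there (median -0.49), and protocadherins 9 and 1 of 12 (median -0.74).

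Neuronal lists were mixed. Of 34 genes of synaptic scaffolds and transmitter release, all tested, 17 had TDP-43 and 8 m6A higher (median 0.39), and of 33 measured in both assays 16 and 8 (median 0.24). Dlg2 (PSD-93) had 30.2, 34.3 and 41.4 TDP-43 against 1.06, 3.07 and 4.07 m6A clusters, whereas the adhesion protein Nlgn1 had 1.11, 2.40 and 4.48 against 18.9, 27.3 and 33.0. Of 26 glutamate and GABA receptor genes 6 had TDP-43 and 14 m6A higher (median -0.49), with Grm7 on the m6A side, and of 20 measured in both assays 6 and 8 (median 0.01). Of 33 voltage-gated channels 12 had TDP-43 and 17 m6A higher (median -0.32), with Kcnb2 on the m6A side, and of 30 measured in both assays 9 and 15 (median -0.30). Of 51 splicing factors 40 were tested, 16 with TDP-43 higher, such as Hnrnpd, and 12 with m6A higher, such as Nova1 (median 0.49), and of 31 measured in both assays 12 and 9 (median 0.29). On all listed clusters the receptors turned to 18 TDP-43 and 2 m6A higher of 25 tested (median 0.56). The channels turned to 24 and 3 of 33 (median 0.70). The synaptic list had 21 and 6 of 34 there (median 0.48), and the splicing list 24 and 6 of 46 (median 0.31). Over all 6381 genes tested there, 3082 had TDP-43 and 1368 m6A higher (median 0.25), so the splicing list lay close to all genes.

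Of 14 long noncoding RNAs 10 were tested, 5 with m6A higher and 0 with TDP-43 higher (median -0.96), and of 7 measured in both assays 2 and 0 (median -0.17). Neat1, the scaffold of paraspeckles, had 5.87, 7.34 and 10.6 m6A and at most 1.39 TDP-43 clusters. Malat1, an abundant nuclear RNA, had 22.8, 29.9 and 32.5 m6A clusters but TDP-43 values from 0 to 43.1 with a median of 6.35, so its groups overlapped (log2 difference -2.02, SE 0.64, limma adjusted p = 0.00743). It held 6 TDP-43 and 9 m6A sites and 0 shared stretches.

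Markers of cell types stand beside the 70.0% of all genes tested that had m6A higher. Of 12 markers of cortical excitatory neurons, all tested, 3 had TDP-43 and 7 m6A higher (median -1.28). For interneurons it was 1 and 3 of 7 tested, for striatal projection neurons 2 and 6 of 9, for astrocytes 2 and 4 of 7 and for oligodendrocytes 1 and 4 of 7. Measured in both assays were 11 excitatory (3 and 6 called), 2 interneuron (1 and 0), 4 striatal (2 and 1), 4 astrocyte (2 and 1) and 5 oligodendrocyte markers (1 and 2), with medians of -0.77, 0.64, 0.10, 0.09 and -0.04. The 4 microglial and 3 vascular markers tested had 0 enriched TDP-43 clusters in every library and so passed the filter through m6A alone, and none was measured in both assays. Among them is Cx3cr1, the fractalkine receptor, with 7.31, 8.44 and 11.6 m6A and 0 enriched TDP-43 clusters. Aqp4, the water channel of astrocytes, had 9.47, 15.9 and 18.8 against at most 1.39, and Drd1, a dopamine receptor, had 10.5, 11.4 and 13.5 against 0. Of the remaining lists, replication-dependent histones had 4 of 66 tested (1 TDP-43 and 3 m6A higher) and mitochondrially encoded genes 1 of 13 (not called), with none measured in both assays.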

How the data were processed

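TDP-43 and m6A eCLIP clusters of NT cortex were analysed from the lists the authors deposited, 1 per IP library. Per the labels and the study's methods, the authors called clusters with CLIPper on mm10 and scored each against its input; the aligner is not given in the sources used here. The deposited −log10 p (at most 400) and log2 fold over input are the authors' values and served only to select clusters. Input libraries and 22 other cluster lists were not used here. The comparison, its members and the gene lists were proposed with earlier results of these data known, and the labels then gave each sample's group.

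The midpoint and strand of a cluster gave its GENCODE vM21 gene and feature on GRCm38, which mm10 names, coding sequence first where transcripts differ; those on unplaced scaffolds (28 to 69 per library) were left out, and 3.17 to 4.68% of enriched clusters lay where genes overlap. Libraries of an assay shared 0.189 to 0.861% of identical intervals, so none was counted as listed again. Background clusters kept length, gene, strand and feature and were moved by 9 even steps through the feature's joined exons. Shares were compared by exact permutation of assay within sex (4900 labelings) or, against a background, by exact sign flips, two-sided, with Benjamini-Hochberg adjustment over 50 tests; with so few labelings the smallest p are 0.000408 and 0.00781. Where at least 50% of the 16 libraries had 2 enriched clusters or more, a gene was tested in limma 3.58.1 (eBayes with a trend after lmFit, sex as covariate, adjusted over all genes tested) on log2 of normalized clusters with 0.5 added, after median-ratio scaling; SE is the moderated standard error. Named genes are the 10 largest differences each way among genes called, if the higher mean was 4 or more and the assays did not overlap, the 8 genes with most shared stretches, and Tardbp and members of each list among its 4 largest differences. Scripts were tested on simulated data. Python 3.11.15, NumPy 2.4.6, matplotlib 3.10.9 and R 4.3.3 were used. Alternatives changed the enrichment threshold, scaling, pseudocount, filter, site support, kind of overlap and background, and left out libraries; joining abutting clusters and asking for 2 clusters in libraries of each assay were added once the data had been seen. The lists hold no reads, so no counting interval can be given. Some members of the lists are not reported here by name.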

Additional observations from a re-analysis of the deposited data

Results flagged for a closer look

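In 5 of 50 groups of 8 libraries 1 library stood apart from the rest, where chance gives about 1 in 20. For TDP-43 the highest share of 3' UTR clusters in the first 200 bases after the stop codon was 13.9%, and the next was 12.6%. For m6A the highest share of windows with GGACU was 14.2%, and the next was 13.5%. The highest ratio of observed to shifted overlap for intronic TDP-43 clusters was 83.4, and the next was 55.4. In NT striatum the highest log2 ratio of observed to shifted overlap was 0.56 over all features and 0.31 in coding sequence, and the next were 0.35 and 0.20.

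The log2 ratio of observed to shifted overlap was lower in NT cortex than in NT striatum, with a difference of -0.0512 over all features and of -0.0751 in coding sequence (exact permutation within sex, adjusted p = 0.00255 for both). Without the striatal library that stood apart the former was -0.0247.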

How the results depend on the processing

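Depth is unknown, its part in the number of clusters per gene was not tested, and assay differs together with RNA preparation, antibody and cluster length. Of the alternative values for comparisons, 222 kept direction and side of the threshold; the exceptions follow, and the cause was not tested unless given. With the thresholds of the study the coding difference was 1.36 points (exact permutation p = 0.333) and the 3' UTR difference reversed to 2.21 points. The intron difference reversed to 13.8 points on all listed clusters and to 0.454 points at p of 1e-10 or less. Against non-enriched clusters the m6A overlap ratio reversed to 0.877 (0.935 in 3' UTRs, 0.807 in coding sequence), and with the thresholds of the study the coding ratio of TDP-43 was 1.02. On all listed clusters the difference from NT striatum reversed to 0.00599 and that from R6/2 cortex to 0.0174 (exact permutation p = 0.0449). Without single libraries these differences ranged from -0.0562 to -0.0247 and from -0.0138 to 0.000851, the last without R6/2 cortex male 4.

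Genes called numbered 4450 on all listed clusters (3082 with TDP-43 higher), 2101 with the thresholds of the study (1404 with TDP-43 higher), 4511 at p of 1e-10 or less, 11038 with no filter and, chosen after seeing the data, 2438 with 2 or more clusters in at least 4 libraries of each assay. Leaving out 1 library gave 3880 to 6694; leaving out any of the 8 m6A libraries gave 3880 to 3917 of 4756 to 4780 tested, since 7 m6A libraries alone cannot pass the filter. Scaling moved the median log2 difference from -2.11 to -1.68 (totals) and -0.20 (quantile).

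Deviations of TDP-43 and m6A libraries with the same number correlated between -0.022 and 0.028, and those with other numbers reached at most 0.034. Within sex the same number correlated best only for TDP-43 female 2, female 3 and female 4. Correlations this weak cannot decide whether library numbers pair the assays. With replicate number as a block, 6974 genes were called, and of the calls on shares, motifs, regions and named genes it changed only that of D430041D05Rik (limma adjusted p = 0.0865).

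For 51 named genes, 1163 values kept direction and call. On all listed clusters the log2 difference reversed for Bsn (-0.19), Cox4i1 (-0.74), Fmr1 (-0.11), Grm7 (0.54), Kcnb2 (0.71), Malat1 (0.80), Nefl (-0.37), Nlgn1 (1.44), Nwd2 (0.0032), Ptprz1 (0.10), Rps3 (-1.25), Sdha (-0.0478) and Tardbp (0.28). Quantile normalization reversed Apc (-0.10), Bsn (-0.69), D430041D05Rik (-0.35) and Pclo (-0.30), and p of 1e-10 or less reversed Apc (-0.11), D430041D05Rik (-0.54) and Map1a (0.11). Bsn also reversed with covered bases (-0.00956) and in males only (-0.10), Map1a with the thresholds of the study (4.59) and with totals (0.31), and Pclo with abutting clusters joined (-0.35, chosen after seeing the data).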
